A study of Mus musculus with 120 samples.

Results

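Single mouse group 2 innate lymphoid cells (mILC2s) caught 30 min after they began to secrete IL-5 were compared with resting mILC2s taken before any stimulus. The members were the cells that the labels place in the 30 min transition state or in the pre-stimulation state of the IL-5 index, with at least 10000 reads in genes. This gave 10 onset cells and 5 resting cells, 15 of the 120 cells of the series. An eleventh onset cell had 73 gene reads and was left out. The cells descend from lineage-negative lymphocytes carrying c-Kit and Sca-1, sorted from the mesentery of 20 pooled wildtype C57BL/6 mice, and all cells came from cultures kept in IL-2 for months. Per the study's methods the animals were as a rule females past breeding use, with no age in weeks stated in the sources used here. Onset cells received IL-2 and IL-33 and were watched by live imaging until IL-5 secretion began. Resting cells had no stimulus. The groups therefore differ in both the stimulus and the selection for IL-5 secretion, and these cannot be told apart here.

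ILC2s are tissue lymphocytes without antigen receptors that answer alarm signals from damaged epithelium. IL-33 binds the receptor ST2 (Il1rl1) and works through the adaptor MyD88, NF-kB and MAP kinases, and IL-2 works through STAT5. Together they switch on the type 2 cytokines IL-5, which supports eosinophils, and IL-13, which acts on epithelium and muscle. Il5 and Il13 lie in the same cytokine cluster of mouse chromosome 11.

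Each cell was 1 library of reads from transcript 3' ends, given as raw reads per gene. Gene reads per cell were 133373 to 306589 (median 264798) in resting cells and 231240 to 464846 (median 358946) in onset cells. No animal or culture is named for a cell, so each state counts as 1 sample, no test was possible, and cells show the spread between cells only. Reads were summed over the cells of a state and scaled to a total of 1000000 gene reads (counts per 1000000, CPM). Intervals are exact 95% intervals that cover counting error only, since reads carry no molecular identifiers. The titles carry 2 dates whose meaning the labels do not give. All resting cells carry the first date, and 5 onset cells carry each date. Per the labels, 5 or 6 libraries were pooled before tagmentation, but not which ones, so whether pools followed the states was not tested.

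Promoters are shown for 4 cytokine genes with 0 resting reads and reads in at least 7 of 10 onset cells, so that the start of each gene can be set beside its reads. The 250 bases before each start come from RefSeq (GRCm38.p6), 5′ to 3′ along the gene. Capitals mark any match on either strand to 5 motifs named for the factors that bind such letters. The AP-1 motif was TGANTCA. The letters AGATAA stood for GATA factors. The NFAT motif was TGGAAA. The CRE motif was TGACGTCA, and the last was the NF-kB consensus.
Il5, chr11:53720544-53720793, plus strand: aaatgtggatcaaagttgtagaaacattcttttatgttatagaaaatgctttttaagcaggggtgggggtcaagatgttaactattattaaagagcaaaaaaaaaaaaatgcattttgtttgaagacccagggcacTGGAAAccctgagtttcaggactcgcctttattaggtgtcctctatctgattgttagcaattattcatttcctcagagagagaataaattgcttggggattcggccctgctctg
Il13, chr11:53634703-53634952, minus strand: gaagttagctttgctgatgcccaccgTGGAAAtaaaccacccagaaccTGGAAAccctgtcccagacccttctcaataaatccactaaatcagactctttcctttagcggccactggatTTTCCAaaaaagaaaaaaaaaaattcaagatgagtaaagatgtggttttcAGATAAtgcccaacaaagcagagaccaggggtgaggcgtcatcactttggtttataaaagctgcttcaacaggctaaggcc
Il9, chr13:56482258-56482507, minus strand: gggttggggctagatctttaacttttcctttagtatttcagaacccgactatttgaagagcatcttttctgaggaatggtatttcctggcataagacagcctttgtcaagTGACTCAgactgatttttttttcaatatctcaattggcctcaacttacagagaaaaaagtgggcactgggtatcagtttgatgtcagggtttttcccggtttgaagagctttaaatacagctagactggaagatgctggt
Il6, chr5:30012864-30013113, plus strand: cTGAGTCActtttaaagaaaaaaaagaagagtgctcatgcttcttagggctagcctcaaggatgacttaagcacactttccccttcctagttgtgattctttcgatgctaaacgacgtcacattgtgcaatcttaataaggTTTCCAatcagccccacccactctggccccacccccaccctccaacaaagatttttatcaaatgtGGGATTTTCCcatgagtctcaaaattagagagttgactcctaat

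The NFAT letters stood before Il5, Il13 and Il6, the GATA letters before Il13, the AP-1 letters before Il9 and Il6, and the NF-kB consensus before Il6 alone of the 4. Of the 19 listed effector cytokines, 16 had a promoter in the table and 9 of them (56.2%) held the NFAT letters, against 20.9% of all 27025 genes. AP-1 letters were present in 4 (25.0%, against 7.82% of all genes), GATA letters in 4 (25.0%, against 11.4%), CRE letters in 1 (6.25%, against 1.77%) and the NF-kB consensus in 1 (6.25%, against 4.46%). Among genes that met the naming conditions given with the processing, 9 promoters were found for the 10 with the largest ratios of onset over rest. Of these 9, 4 held NFAT letters (Ccl1, Gadd45b, Il13 and Il5) and 2 held GATA letters (Batf and Il13). AP-1 letters were in 1 (Il9), and the CRE letters or the NF-kB consensus in 0. These are matches of letters, and occupancy was not measured.

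The first question was how far the secreted cytokine and its partners had changed at the transcript level. Of 9 effector cytokine genes with a mean of at least 50 CPM over both states, 7 were at least 4-fold higher at onset and 0 were at least 4-fold lower, with a median log2 ratio of 7.02. Over all 2837 genes compared in this way, 431 (15.2%) were at least 4-fold higher and 484 (17.1%) at least 4-fold lower, with a median of -0.19. Of these, 249 (8.78%) and 156 (5.5%) also had reads in at least 70% of the cells of the higher state and kept their direction in the first date and without any 1 cell. Of the 431 higher genes 207 had 0 resting reads, and of the 484 lower genes 124 had 0 onset reads. Such genes could reach the minimum only through the state in which they were higher, so their direction was set in advance. The 19 listed cytokine genes held 0 to 0.0610% of the reads of a resting cell and 0.126% to 6.22% (median 1.98%) of those of an onset cell.

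Il5 itself (ENSMUSG00000036117, GRCm38 chromosome 11, 53720794 to 53725106, plus strand) had 0 reads in all 5 resting cells. In onset cells it lay between 316 and 11742 CPM, with a median of 3661 CPM. The states did not overlap. Summed over cells this was 16344 reads against 0, or 4602 CPM (4532 to 4673), at least 1859-fold higher. Cells were picked for IL-5 secretion, so this value checks the labels. Il13 (chromosome 11, 53631324 to 53634702, minus strand) was also at 0 in every resting cell and ranged from 154 to 6480 CPM (median 1567 CPM) at onset, although IL-13 was not the protein followed, and was at least 767-fold higher.

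Csf2, which encodes GM-CSF, had reads in 1 resting cell (128 CPM) and in all 10 onset cells, from 15.1 to 47310 CPM (median 4077 CPM). Its log2 ratio was 7.98 (7.50 to 8.51). Calca, which encodes the neuropeptide CGRP, was at 0, 307, 3.78, 0 and 0 CPM in the resting cells and at 12.1 to 6372 CPM (median 3879 CPM) at onset. Its log2 ratio was 5.42 (5.13 to 5.73), and all 5 onset cells of the first date were at 967 CPM or more while 2 of the second date were under 16 CPM. Il6, a pleiotropic inflammatory cytokine, was read in 7 of 10 onset cells at up to 1064 CPM and in 0 of 5 resting cells, at least 129.9-fold higher. Tnf was read in 5 of 10 onset cells and in 0 resting cells, at least 50.1-fold higher, but 58.6% of its onset reads lay in 1 cell.

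Il9, a growth factor for mast cells and ILC2s themselves, showed a split that its sum hides. A pair of cells, 1 of each date, held 11854 and 39596 CPM. The log2 ratio over all cells was 11.09, and 8.94 without onset replicate 8. The other 8 onset cells held 6.64 to 96.4 CPM, and the resting cells held 0. The 4 other cells of the first date had 2 to 9 reads each, 0.0536% to 0.241% of the reads of that date's high cell, and the 4 of the second date had 19 to 32 reads each, 0.124% to 0.208% of theirs. These low values move with a high library in the same set, and whether reads passed between libraries was not tested. Ccl1, the ligand of CCR8 and the only chemokine of 12 listed that reached the minimum, was likewise uneven, with 1 cell of each date at 8537 and 8857 CPM and a median of 84.3 CPM.

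Not every type 2 cytokine followed. Il4 was at 0, 3.26, 7.55, 126 and 565 CPM in the resting cells and at 0 to 232 CPM (median 28.4 CPM) at onset, a log2 ratio of -0.97 (-1.26 to -0.67), short of 4-fold. Lif, a cytokine of the IL-6 family, was at 74.2 CPM in resting and 44.8 CPM in onset cells, a log2 ratio of -0.73 (-1.11 to -0.34). In both the states overlapped, and both changed sign without 1 resting cell, to 0.76 for Il4 without resting replicate 5 and to 3.76 for Lif without resting replicate 2. Without onset replicate 7, Lif was at -2.83.

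**Figure D1:**
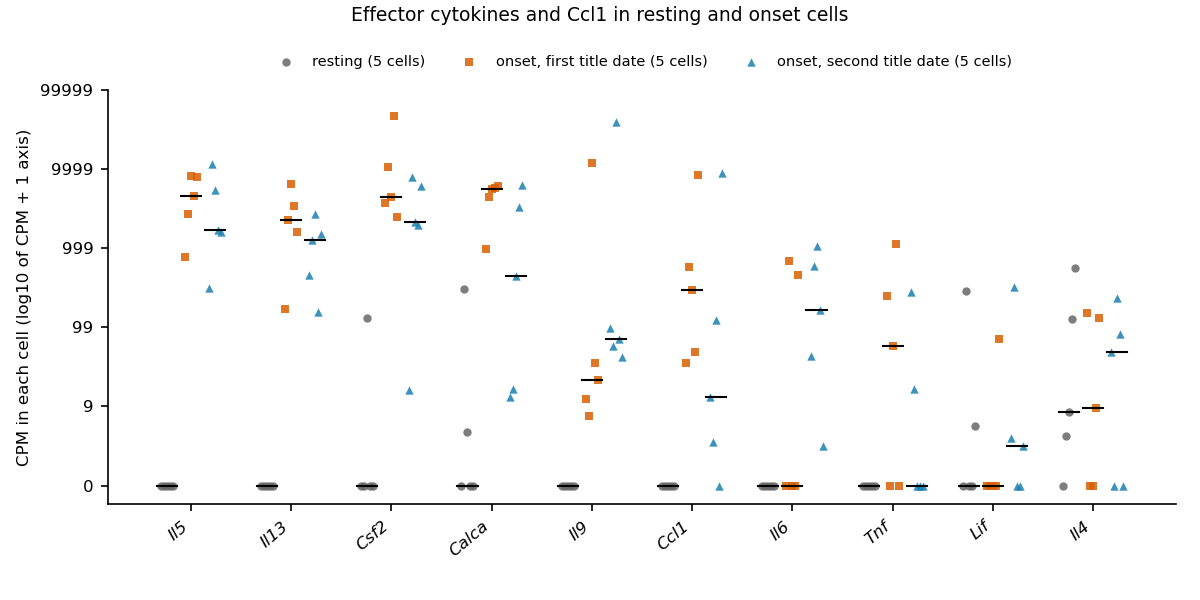
CPM in each cell (vertical axis, log10 of CPM + 1) of 9 effector cytokine genes and Ccl1, for 5 resting cells (grey), 5 onset cells of the first title date (orange) and 5 of the second (blue), with black bars at medians. Il5 and Il13 are at 0 in all resting cells and at 154 CPM or more in every onset cell, Il9 is high in 1 cell of each date, and Il4 overlaps between states.

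The regulators of the response were examined next. NF-kB proteins are held in the cytoplasm by IkB proteins and enter the nucleus when IkB is destroyed, and they then induce their own inhibitors. Of 16 NF-kB subunit and feedback genes compared, 11 were at least 4-fold higher and 1 at least 4-fold lower, with a median log2 ratio of 2.83 (3.08 and 2.78 with the onset cells of the first and of the second date alone). Between the resting cells of this index and those of the IL-13 index, set against each other in the same way, 3 of 7 such genes were higher and 1 lower.

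Rel, which encodes the subunit c-Rel, was at 0 in every resting cell and at 321 to 1276 CPM (median 574 CPM) in onset cells, at least 258-fold higher. Among the inhibitors, Nfkbia (IkB alpha) was at up to 359 CPM in resting cells and at 480 CPM or more in every onset cell, a log2 ratio of 3.44 (3.26 to 3.63). Nfkbib (IkB beta) was at 0 at rest and in all 10 onset cells, at least 105-fold higher, though 1 onset cell held only 3.01 CPM. The feedback genes Tnfaip3, which encodes the ubiquitin-editing enzyme A20, and Bcl3, a nuclear IkB protein, were at 0 at rest and were read in 8 and 9 onset cells, at least 69.3-fold and 67.2-fold higher. The single lower gene, N4bp1, had 190 resting reads in 3 cells and 0 onset reads, and was singled out after its values were seen, as was Nfkbia.

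AP-1 is a dimer of Fos, Jun and ATF-like proteins, and immediate early genes are induced without new protein synthesis. Of 9 such genes compared, 6 were at least 4-fold higher and 0 at least 4-fold lower, with a median log2 ratio of 2.90. Batf, a partner of Jun proteins in lymphocytes, was at 0 in all resting cells and between 614 and 6080 CPM (median 2489 CPM) in onset cells, at least 919.8-fold higher. In the IL-13 index Batf was at 122 CPM in resting cells, and its log2 ratio at IL-13 onset was 4.71. Junb was read in 3 resting and 10 onset cells with a log2 ratio of 2.90 (2.50 to 3.34), and the cells overlapped. Egr2, an early growth response factor, had 1 resting read against 447 in 7 onset cells. Its log2 ratio was 5.67 with the resting state raised to 3 reads and 7.25 (4.77 to 12.56) without that, and rests on that single read. Nr4a1, an orphan nuclear receptor, had a log2 ratio of 3.45 that was 4.52 with the first date alone and 0.67 with the second.

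Of the remaining signalling lists, STAT and SOCS genes had 4 of 11 higher and 1 lower (median log2 ratio 0.79). Over the alternatives 2 to 5 of them were higher and 1 to 2 lower. Pim2, a kinase induced by STAT5, was at least 129.5-fold higher and read in 9 onset cells. Stat6, the signal transducer of IL-4 and IL-13, had a log2 ratio of 3.06 (2.50 to 3.69), and 1.84 with every cell thinned to 100000 reads. Stat5a was at least 52.1-fold higher, but it overlaps Stat3 on the other strand and the strand setting of the counting is not given. Of 9 IRF genes listed, 2 were compared and both were higher. Both had 0 resting reads, so the minimum fixed their direction. At IL-13 onset, of 2 IRF genes compared 1 was higher and 1 lower. Irf8 was at 0 at rest and at 3.01 to 932 CPM (median 265 CPM) at onset, and Irf5 was read in 7 onset cells and 0 resting cells. The 2 MAP kinase and PI3 kinase feedback genes compared, Inpp4b and Inpp5d, had log2 ratios of -0.97 and -1.79, both named here after their values were seen.

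Of 14 genes that the study named as transiently induced on the IL-13 index, which were picked on other cells of this series and so no independent evidence of direction, 8 reached the minimum and 6 of these were at least 4-fold higher with 0 lower. Klrg1 (-0.18) and Il4 (-0.97) were the others. Mir155hg, the host transcript of miR-155, a microRNA of lymphocyte activation, lay under the minimum at 93.5 CPM at onset and had 0 reads at rest. It was read in 7 of 10 onset cells at up to 379 CPM. Only 3 of these were at 50 CPM or more, and the rest held 4.53 to 9.04 CPM. The libraries count the host transcript and not the mature microRNAs, whose RefSeq sequences follow for reference with the seed (bases 2 to 8) in capitals.
mmu-miR-155-5p, chr16:84714143-84714165, plus strand: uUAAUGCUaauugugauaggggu
mmu-miR-155-3p, chr16:84714182-84714202, plus strand: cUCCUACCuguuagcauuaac

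**Figure D2:**
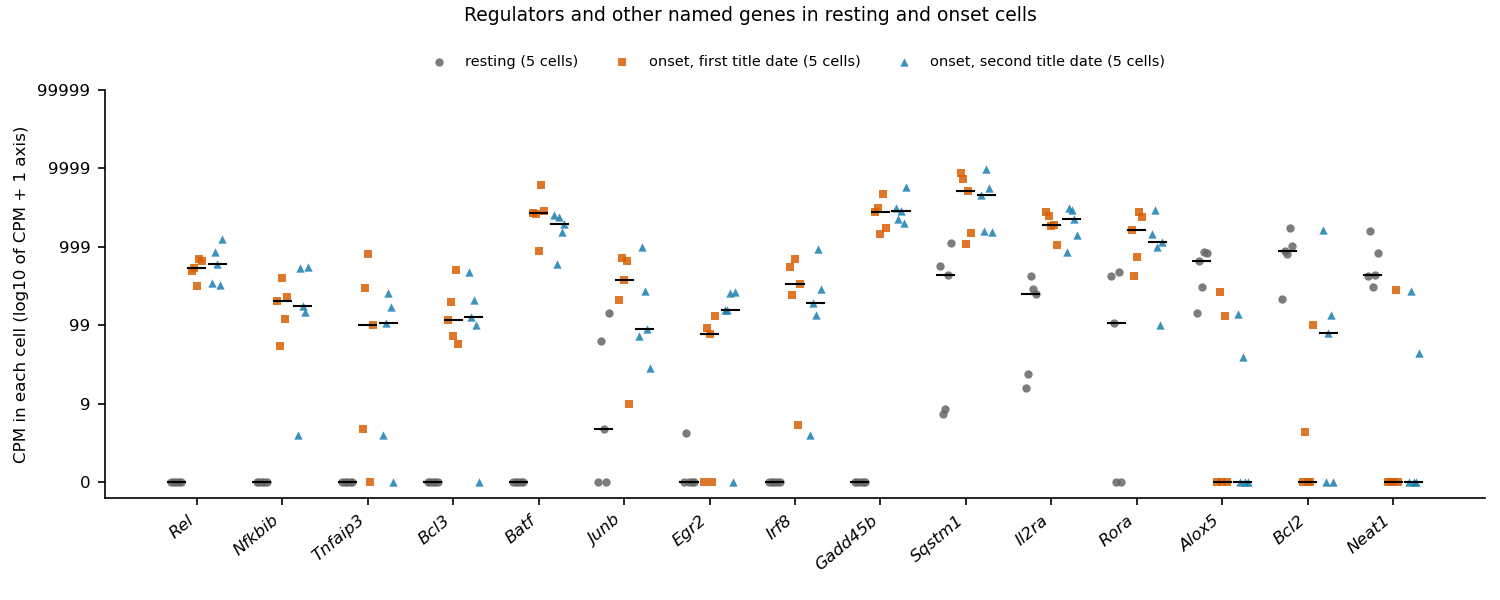
CPM in each cell (vertical axis, log10 of CPM + 1) of 15 named genes for resting cells (grey), onset cells of the first title date (orange) and of the second (blue), 5 cells each, with black bars at medians. Rel, Batf and Gadd45b are at 0 in all resting cells and at 321 CPM or more in all onset cells, Il2ra does not overlap between states, and Neat1 is lower in every onset cell than in any resting cell.

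Among stress and growth arrest genes, 3 of 6 were higher and 1 lower (median log2 ratio 2.16). Gadd45b (chromosome 10, 80930073 to 80932204, plus strand), which encodes a stress protein that binds MAP3K4, had 0 in all resting cells and 1459 to 5774 CPM (median 2826 CPM) in onset cells, at least 1203-fold higher. No onset cell came near the resting cells. Rrad, a small GTPase, was at least 304-fold higher but held 58.8% of its onset reads in 1 cell. Ddit3, the stress factor CHOP, was lower, with reads in 4 of 5 resting and 2 of 10 onset cells and a log2 ratio of -3.72 (-4.12 to -3.35). Sqstm1, the autophagy receptor p62 and an NRF2 target, was at 562, 6.52, 7.55, 433 and 1125 CPM at rest and at 1103 to 9751 CPM (median 4830 CPM) at onset, a log2 ratio of 3.59 (3.45 to 3.73), with 1 onset cell inside the resting range.

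Surface and identity genes were mixed. The label was first checked against markers: of 13 ILC2 markers 10 were compared, 2 were at least 4-fold higher and 0 lower, and Gata3, the master factor of ILC2s, stood at 1752 CPM at rest and 1108 CPM at onset (log2 ratio -0.66, and 0.04 without resting replicate 2). Il1rl1, the IL-33 receptor, stood at 1524 and 1586 CPM, a log2 ratio of 0.06 (-0.02 to 0.13). The summed level of the 13 markers was 6722 to 16299 CPM in resting and 7141 to 17935 CPM in onset cells. All 7 NK and ILC1 markers, 5 ILC3 markers and 9 myeloid markers had 0 reads in both states. Of 9 T cell markers 7 had 0 reads in both states, while Cd3g lay in 2 of 5 resting cells at up to 3643 CPM and was lower at onset, with a log2 ratio of -5.88 (-6.24 to -5.54). Trbc2, the other T cell marker with reads, was at 572.5 CPM at rest and 566.8 CPM at onset and was read in all 10 onset cells, a log2 ratio of -0.01 (-0.14 to 0.11). Without resting replicate 3, which held 70.0% of its resting reads, the Trbc2 log2 ratio was 1.37. T cell markers summed to 280.1 to 3643 CPM in resting cells and 4.32 to 1416 CPM in onset cells, and their part in the results was not tested. Of the B cell, mast cell and stromal lists, 1 gene each had reads. Those of the B cell list summed to at most 498 CPM in a resting and 265 CPM in an onset cell, those of the mast cell list lay in resting cells at up to 169.9 CPM, and those of the stromal list, all Pecam1, reached 18.7 CPM at rest and 807 CPM at onset.

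Il2ra, the high-affinity subunit of the IL-2 receptor, was at 15.0 to 419 CPM (median 247 CPM) at rest and 871 to 3171 CPM (median 2093 CPM) at onset, without overlap, a log2 ratio of 3.26 (3.08 to 3.45). It was the single gene at least 4-fold higher of 10 ILC2 receptors, whose median was 0.03. Rora, a nuclear receptor needed for ILC2 development, had a log2 ratio of 2.92 (2.73 to 3.11), with 2 resting cells at 0 and all onset cells at 100.5 CPM or more. Ahr, the aryl hydrocarbon receptor, was at least 91.8-fold higher with 60.2% of its onset reads in 1 cell, and Ets1 was lower at -2.87 (-3.31 to -2.45). ILC2 transcription factors as a list had 2 of 7 higher and 3 lower, and 1 lower without resting replicate 4.

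Costimulation and checkpoint genes had 6 of 10 higher and 1 lower. Their median log2 ratio was 3.41 (2.06 and 3.14 by date), and 2.00 with 5 of 9 higher without onset replicate 11. This stood against 0 of 5 higher and 1 lower between the resting cells of the 2 indexes. Cd44, the hyaluronan receptor, was read in 1 resting and 9 onset cells, with a log2 ratio of 6.95 (5.83 to 8.40). Pdcd1lg2, the PD-1 ligand PD-L2, had 4.64 (4.06 to 5.29) and Tnfrsf9, the costimulatory receptor 4-1BB, had 4.06 (3.58 to 4.58). Of the 6, Tnfsf8 had 99.5% and Tnfrsf4 100% of its onset reads in 1 cell. Cd200r1, an inhibitory receptor, was lower at -2.53 (-2.78 to -2.30).

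Metabolic and biosynthetic lists came next. Sterol synthesis runs from acetyl-CoA through HMG-CoA and squalene to cholesterol. Of 8 cholesterol and fatty acid synthesis genes compared, 6 were at least 4-fold higher and 0 lower, with a median log2 ratio of 4.28 (3.48 and 4.62 by date). Hmgcs1, the HMG-CoA synthase, and Fdft1, the squalene synthase, had 0 resting reads and were at least 122.9-fold and 124.6-fold higher. Idi1, an isomerase of the path, had a log2 ratio of 4.78 (3.93 to 5.79). Fasn, of fatty acid synthesis, and Sc5d, a late sterol enzyme, were not among them, at -1.42 and -1.24. Without onset replicate 3 the list had 4 higher and 1 lower. At IL-13 onset 2 of 5 such genes were higher and 1 lower (median 0.88). Resting cells of this index against those of the IL-13 index had 1 of 4 higher and 0 lower (median 0.50).

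All 17 ribosome biogenesis genes compared had a log2 ratio above 0, with 6 at least 4-fold higher (median 1.45), as with Gnl3, the nucleolar protein nucleostemin (3.42, 2.94 to 3.95). The ribosomal proteins themselves did not move alike: of 81 genes 2 were higher and 0 lower, the median was -0.47 and 13 were above 0, and the list held 21.5% of resting and 15.6% of onset reads. The exceptions were Rpl7l1 and Rps27l, both paralogues of ribosomal proteins. Reads with more than 1 alignment were kept out of the gene counts, and what this meant for these genes was not tested. With resting cells of both indexes neither was past 4-fold, at log2 ratios of 1.81 and 1.74, and at IL-13 onset they were at 1.35 and 0.38. Proteasome subunits had 4 of 28 higher and 0 lower, a share near the 15.2% of all genes, with a median of 0.85 (23 above 0). Over the alternatives the count ran from 1 to 8. It was 7 of 28 with TMM scaling or DESeq2 size factors and 6 of 29 with averaged single-cell CPM. With resting cells of both indexes 1 of 29 was higher and 1 lower (median 0.69), and the resting cells of this index against those of the IL-13 index had 0 of 28 higher and 4 lower. Psmc1, an ATPase of the regulatory particle, reached 300 CPM in the median onset cell against at most 3.78 CPM at rest. With TMM scaling in place of total reads, the median of the ribosomal proteins was -0.14 and that of all genes 0.21.

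Nuclear oxidative phosphorylation genes had 4 of 75 higher and 0 lower (median 0.02), 2 higher with resting cells of both indexes and 8 without resting replicate 4, with Cycs, cytochrome c, at 268 to 593 CPM at rest and 698 to 2940 CPM at onset without overlap. Translation factors had 3 of 24 higher, chaperones 3 of 18, endoplasmic reticulum folding genes 2 of 25 and actin cytoskeleton genes 0 of 24, each with 0 lower and none far above the 15.2% of all genes. The translation factor count was 1 without onset replicate 3, without resting replicate 5 or with the second date alone, the chaperone count 5 without resting replicate 1 or 4, and the folding gene count up to 7, without resting replicate 4. Glycolysis genes had 2 of 9 higher, Tpi1 and Pgam1, and 1 lower. Manf, a secreted chaperone of the endoplasmic reticulum, had a log2 ratio of 2.92 (2.69 to 3.15), while its resting reads lay in 1 cell. With resting cells of both indexes Manf was short of 4-fold (1.44), as were Tpi1 (1.86) and Gnl3 (1.90).

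**Figure D3:**
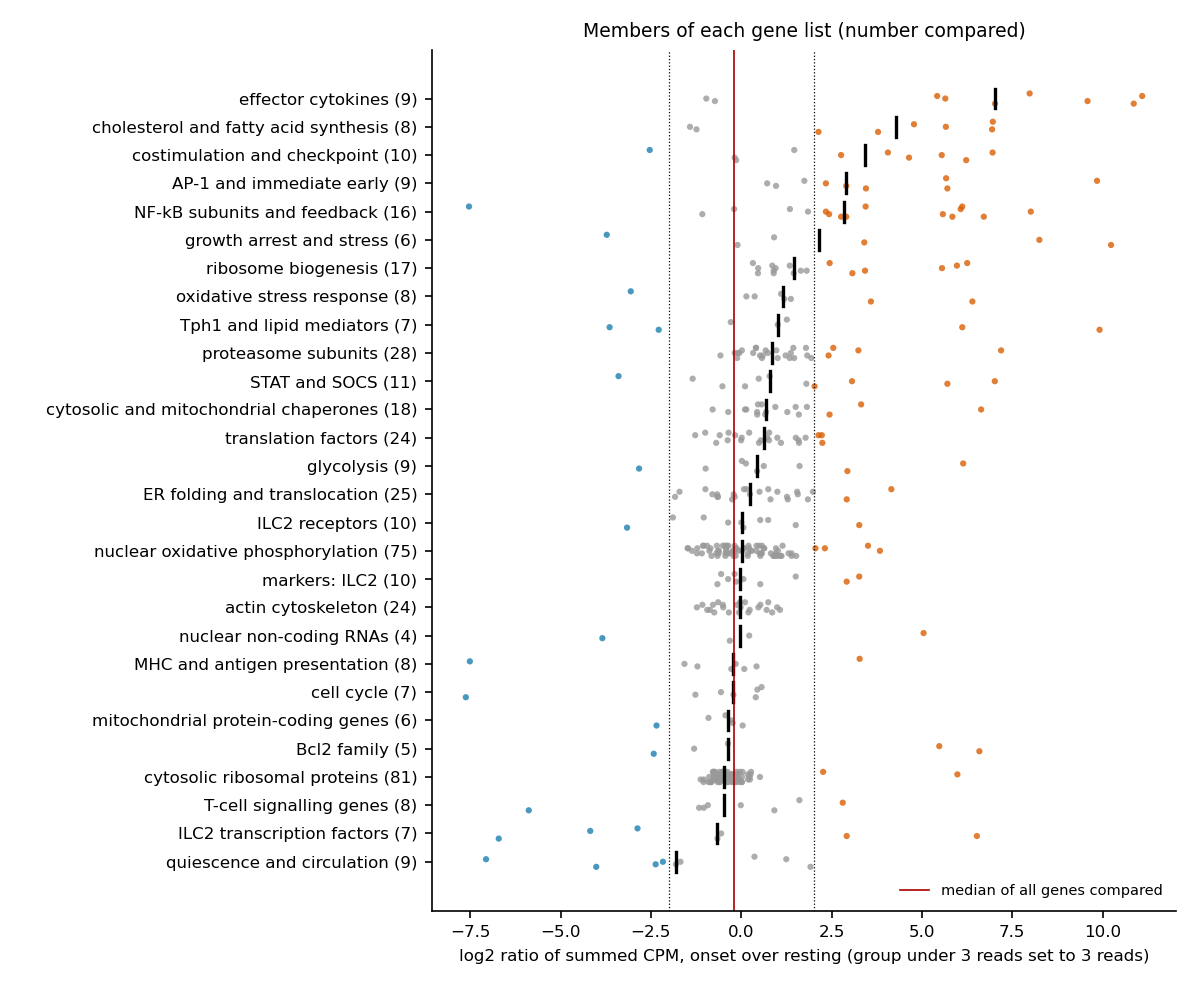
The log2 ratio of summed CPM, onset over resting (horizontal axis), of each compared member of 28 gene lists (rows, with the number compared), coloured orange at 4-fold or more higher, blue at 4-fold or more lower and grey between, with a black bar at each list's median, dotted lines at 4-fold and a red line at the median of all genes. Effector cytokines lie highest with a median of 7.02, quiescence genes lowest with -1.81, and cytosolic ribosomal proteins lie close together around -0.47.

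Genes that were lower at onset included markers of rest. Of 9 quiescence and circulation genes compared, 0 were at least 4-fold higher and 4 at least 4-fold lower, with a median log2 ratio of -1.81 (-5.87 with the first date alone and -0.98 with the second). Resting cells of this index against those of the IL-13 index had 2 of 8 such genes higher and 0 lower (median 0.85), and with resting cells of both indexes 3 of 7 were lower and 1 higher (median -1.48). Without resting replicate 5, 2 were lower. At IL-13 onset 0 of 7 were higher and 1 lower (median 0.91). Txnip, a thioredoxin inhibitor, was read in all 5 resting cells and in 3 onset cells, at -2.37 (-2.65 to -2.10), and Klf13, a Krüppel-like factor, at -2.17 (-2.39 to -1.96). Both fell short of 4-fold without 1 resting cell, at -1.38 for Txnip without resting replicate 3 and -1.66 for Klf13 without resting replicate 5, and both were further below 0 without onset replicate 6, at -3.42 and -3.06. By date Txnip was at -7.03 and -1.54 and Klf13 at -7.61 and -1.34, so neither was past 4-fold with the second date. Klf13 was also short of 4-fold with TMM scaling (-1.85), DESeq2 size factors (-1.86), resting cells of both indexes (-1.48) and without onset replicate 5 (-1.98) or 11 (-1.97). Cdkn1b and Klf3, singled out after their values were seen, had 0 and 27 onset reads. Bcl2, the survival factor, was at 217, 874, 808, 1729 and 1036 CPM at rest and at 0 to 1636 CPM (median 1.66 CPM) at onset, a log2 ratio of -2.42 (-2.56 to -2.29). A single onset cell, replicate 6, held 80.2% of the onset Bcl2 reads, without which the log2 ratio was -4.62, and 5 onset cells had none. The ratio was -5.14 with the first date alone and short of 4-fold with the second (-1.69) or with resting cells of both indexes (-1.96).

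Alox5, the 5-lipoxygenase of leukotriene synthesis, was at 142, 665, 310, 849 and 840 CPM at rest and was read in 4 of 10 onset cells at up to 269 CPM, a log2 ratio of -3.64 (-3.89 to -3.40). Its resting and onset ranges overlapped between 142 and 269 CPM. Neat1, the nuclear RNA that builds paraspeckles, was at 306 to 1618 CPM (median 433 CPM) at rest and at 0 to 281 CPM (median 0 CPM) at onset, without overlap, a log2 ratio of -3.85 (-4.08 to -3.62). Malat1, its neighbour on chromosome 19, had a log2 ratio of -0.32 (-0.34 to -0.29) and was named for that comparison after its values were seen.

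Among genes that met the naming conditions, the 10 with the largest ratios of rest over onset each had 0 onset reads. They were Ilk, Arhgap18, AI467606, Smim27, Ccr2, Ndufaf2, Tada3, Castor1, Tspyl1 and Ifitm10, at least 477.6-fold to at least 247-fold lower. Ccr2, a chemokine receptor, was at 307, 355.5, 0, 668 and 4.67 CPM in the resting cells, and Ilk, an integrin-linked kinase, at 112, 776, 295, 0 and 738 CPM. Castor1, an arginine sensor upstream of mTORC1, lay at 232 to 367 CPM in 4 of 5 resting cells and at 0 in the fifth. Several of the others rested on fewer cells, as Tada3, with 995 CPM in 1 resting cell and 26.4 CPM or less in the other 4 (log2 ratio -8.26, and -3.56 without resting replicate 2). Ilk, Smim27 and Ndufaf2 overlap genes on the other strand, so their reads cannot be told apart from those if the counting ignored strand. The same holds for Il5, Csf2, Sqstm1, Nfkbib, Rrad, Furin, Esf1, Bcl3, Junb, Stat5a, Stat6, Irf5, Ahr, Rora, Ets1, Cd44, Pdcd1lg2, Tnfrsf9, Hmgcs1, Fdft1, Idi1, Gnl3, Tpi1, Manf, Rpl7l1, Ddit3, Txnip, Klf13, Bcl2 and Gata3. Neat1, Il2ra, Irf8, Ifitm10 and Mir155hg overlap annotated genes on their own strand.

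Among genes past 4-fold, single cells set the size of many ratios, though leaving any 1 cell out turned no direction among those described here. Where resting reads lay in 1 cell, the log2 ratio was larger without it, as for Csf2 (11.13 without resting replicate 3), Stat6 (6.01 without replicate 1), Tnfrsf9 (7.20 without replicate 4), Pdcd1lg2 (7.47 without replicate 1) and Manf (8.27 without replicate 4). It was likewise larger for Pgam1 (6.21), Idi1 (6.30) and Cd44 (7.60) without resting replicate 3, for Nr4a1 (5.14), Calca (9.98) and Gnl3 (6.55) without replicate 2, for Junb (3.97) and Sqstm1 (4.42) without replicate 5 and for Rora (3.87) without replicate 4. It was smaller for Csf2 (7.25), Tnf (4.47) and Nr4a1 (2.55) without onset replicate 4, for Rrad (7.08) and Irf5 (5.01) without replicate 1, for Tnfaip3 (5.45) without replicate 3 and for Ccl1 (9.07) and Ahr (5.39) without replicate 11, with Ccl1 at 9.18 without replicate 5. It lay further below 0 for Ddit3 (-8.09) without onset replicate 11, Ets1 (-3.73) without replicate 5, Cd200r1 (-3.41) without replicate 6, Alox5 (-4.43) without replicate 2, Neat1 (-4.85) without replicate 7 and Cd3g (-10.36) without replicate 1. Without resting replicate 2, which held 52.9% and 77.1% of their resting reads, Neat1 was nearer 0 at -3.18 and Cd3g at -4.18. Among the genes with no onset read, it was nearer 0 for Arhgap18 (-7.73) without resting replicate 2, Smim27 (-7.19) without replicate 3, Ccr2 (-7.60) and AI467606 (-8.04) without replicate 4, and Tspyl1 (-7.08) and Ifitm10 (-6.48) without replicate 5. The median log2 ratio of a list moved by over 1.5 times as well, for effector cytokines (8.36 without resting replicate 2), NF-kB genes (4.16 without replicate 2, 3.55 without replicate 1 or onset replicate 7), AP-1 genes (2.22 without resting replicate 4), STAT and SOCS genes (1.40 without replicate 2), growth arrest genes (4.80 without replicate 2 and 3.74 without replicate 3) and sterol genes (5.80 without replicate 3, 3.38 without replicate 4 and at most 4.90 without onset replicate 1, 6 or 11).

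The share of genes past 4-fold between states was close to that between 2 sets of resting cells and above that between 2 sets of onset cells. With 5 cells on each side, onset cells of the first date against resting cells gave 16.8% higher and 19.5% lower, and those of the second date, against the same resting cells, 17.6% and 18.6%. Resting cells of this index against resting cells of the IL-13 index gave 19.3% higher and 16.1% lower, and onset cells of the second date against the first gave 11.6% and 9.64%. Of the 484 lower genes 390 had over 50% of their resting reads in 1 cell, and of the 431 higher genes 94 had over 50% of their onset reads in 1 cell. With TMM scaling the counts were 561 higher and 368 lower, 60.4% of the genes past 4-fold being higher in place of 47.1%.

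Genes whose cells did not overlap were more frequent between states. With 5 cells on each side, all onset cells lay above all resting cells in 66 of 2817 genes (2.34%) and below in 34 (1.21%) for the first date, and in 62 (2.15%) and 26 (0.90%) for the second. The same counts were 11 (0.387%) and 5 (0.176%) between the resting cells of the 2 indexes, and 11 (0.402%) and 8 (0.292%) between the 2 sets of onset cells. With all 10 onset cells against 5 resting cells, 21 of 2837 genes (0.74%) lay wholly above and 8 (0.282%) wholly below. The count wholly below rests on few cells, at 20, 16, 23 and 19 without resting replicates 1, 2, 3 and 4 in turn and 13 without onset replicate 1 or 11. This measure was added after the data were seen and carries no test.

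**Figure D4:**
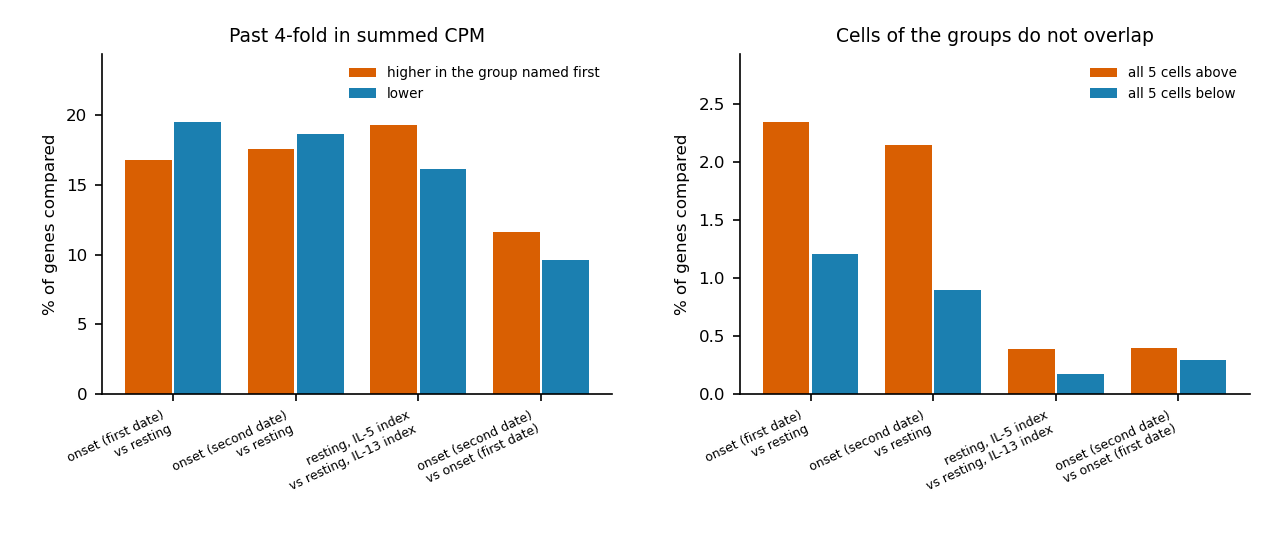
Percent of genes compared (vertical axes, from 0) that were past 4-fold in summed CPM (left) or whose cells did not overlap (right), for 4 comparisons of 5 cells against 5, with orange for higher and blue for lower in the group named first. Shares past 4-fold reach 19.5% between states, 19.3% between the resting sets and 11.6% between the onset sets, whereas shares without overlap reach 2.34% between states and 0.402% within a state.

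Of the 21 genes wholly above, 13 had 0 reads in every resting cell and 16 had at least 50 CPM in every onset cell. They include Il5, Il13, Il9, Gadd45b, Batf, Rel, Irf8, Nfkbia, Nfkbib and Il2ra, already described, and Furin, the protease that cleaves many proproteins, at 0 in all resting cells and 146 to 1265 CPM (median 748 CPM) at onset. Ccdc184 and Esf1, the remaining genes of the 10 largest ratios that met the naming conditions, had 0 resting reads but 1 or more onset cells at 0. Their medians were 836 and 518 CPM. Others without overlap, chosen after their values were seen, were Dcun1d5, a factor of cullin neddylation (124 to 874 CPM against 0), Elp5, an Elongator subunit (64.5 to 942 CPM against 0), Ran, the GTPase of nuclear transport (731 to 2076 CPM against at most 430 CPM), and Snrpb, a core spliceosome protein (240 to 740 CPM against 83.1 to 159 CPM). At IL-13 onset the log2 ratio was 0.15 for Dcun1d5, 4.45 for Elp5, 0.08 for Ran and 0.27 for Snrpb. In 5 of the 21, Il9, Irf8, Nfkbib, Pbdc1 and Mrpl17, the lowest onset cell was under 10 CPM.

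Of the 8 genes wholly below, 4 had at least 50 CPM in every resting cell. These were Neat1, Serpinb1a, an inhibitor of neutrophil proteases (598 to 2210 CPM against at most 560 CPM), Cysltr1, the receptor of cysteinyl leukotrienes (79.4 to 709 CPM against at most 20.6 CPM), and Commd7 (83.1 to 500 CPM against at most 7.73 CPM). The listed lipid mediator genes had 2 of 7 higher and 2 lower. Their median log2 ratio of 1.01 changed sign with the first date alone (-0.15), without onset replicate 7 (-0.13) and with resting cells of both indexes (-0.11). Tph1, the tryptophan hydroxylase of serotonin synthesis, lay in 1 cell of each date, at 10037 and 15869 CPM, against at most 7.01 CPM in the other onset cells.

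**Figure D5:**
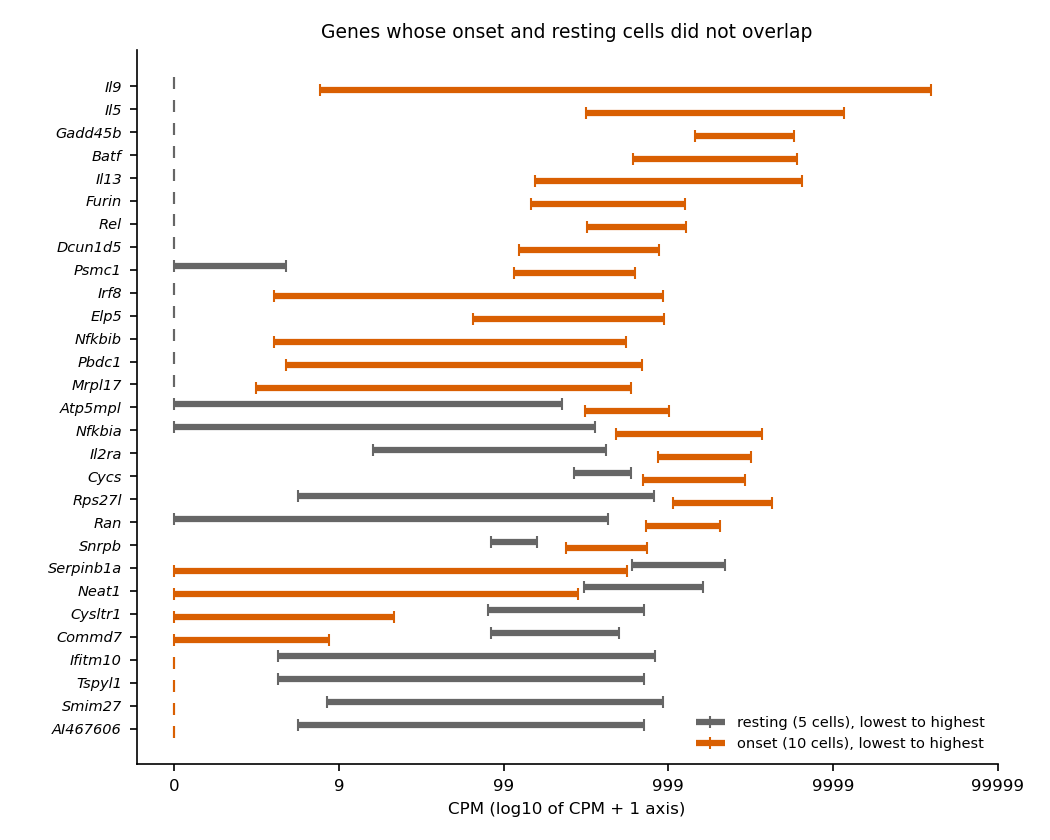
Lowest to highest CPM (horizontal axis, log10 of CPM + 1) over 5 resting cells (grey) and 10 onset cells (orange) for the 29 genes whose states did not overlap, in order of log2 ratio, with a lone tick at 0 where no cell had a read. The upper 21 genes are higher at onset, 13 of them with no resting read, and the lower 8 are lower at onset.

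The number of genes detected was compared next. After each cell was thinned at random to 100000 gene reads, 2109 to 3138 genes (median 2438) were detected in onset cells and 1875 to 2525 (median 2225) in resting cells. The ranges overlapped, and unthinned medians were 2721 and 2591.

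Cells indexed on IL-13 gave a separate set of libraries of the same states, with no cell in common. Among 1952 genes that reached the minimum in both, 296 were at least 4-fold higher at IL-5 onset, and 107 of these (36.1%) were also at least 4-fold higher at IL-13 onset, against 15.5% of all 1952 genes. Those 107 were 35.4% of the 302 genes higher at IL-13 onset. Of 192 genes lower at IL-5 onset, 49 (25.5%) were lower at IL-13 onset as well, against 9.32% of all. A gene without resting reads in either index, as Gadd45b, could reach both minimums only through onset cells. It was thus counted as higher in both by construction. Likewise, a gene without onset reads in either index, as Castor1, was counted as lower in both. Part of each excess over all genes was therefore built in, and how large a part was not tested. Of the genes without overlap, 19 of the 21 above and 4 of the 8 below reached the minimum in the IL-13 index, and 10 and 2 of these were past 4-fold in the same direction there, where at least 4-fold higher and lower genes made up 15.6% and 17% of those compared.

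Several named genes were past 4-fold on both indexes. The log2 ratio at IL-13 onset was 9.84 for Gadd45b, 9.43 for Il13, 8.36 for Rel, 9.36 for Csf2 and 5.78 for Il5. Others differed in value. Il4 was at 0 reads in resting cells of the IL-13 index and had a log2 ratio of 5.74 at IL-13 onset, against -0.97 here, and Il9 had 1 read at IL-13 onset against 19220 here. Neat1 was 1.66 there and -3.85 here, and Bcl2 was 0.19 there and -2.42 here. Whether the 2 indexes differ in these genes was not tested, since each state of each index is 1 sample.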

How the data were processed

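The data are 3' end libraries of single cells, 1 per cell. The authors aligned reads to GRCm38 (mm10) with TopHat2 and deposited raw read counts per gene from HTSeq. Tool versions, the annotation release and the strand setting are not given in the sources used here. The HTSeq summary entries, which name no gene, stayed out of library sizes, which left 52.8% to 63.2% of the entries of an onset cell and 58.7% to 66.7% of those of a resting cell. GENCODE vM21 named 45229 of 46078 identifiers, and the others held 0.110% of reads. The gene lists and named genes were chosen with earlier results of these data known.

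Gene counts of all cells in a state were added up and expressed as CPM. States under 3 reads were raised to 3 for the log2 ratio, so folds against an empty state are lower bounds. Ratios carry exact (Clopper-Pearson) 95% intervals of the split of reads and CPM exact Poisson intervals. Genes with a mean of at least 50 CPM over both groups were compared, and 4-fold, the fold minimum of the study's methods, was the call. With 1 sample per group there is no p-value. Named were the 10 largest ratios in each direction for which the higher state reached 50 CPM with reads in 70% of cells, and whose sign also held for averaged single-cell CPM, for the first date and after dropping any 1 cell. All effector cytokines at the minimum, up to 4 such genes past 4-fold of each other list, the study's transiently induced genes and markers at the minimum were also named, except that results of some genes are not reported here. No 2 cells had identical counts. Scripts were tested on simulated data. Python 3.11.15, numpy 2.4.6, pandas 2.3.3, scipy 1.17.1, matplotlib 3.10.9, R 4.3.3, edgeR 4.0.16 (TMM) and DESeq2 1.42.0 (size factors) were used, the last pair for scaling alternatives only.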

Additional observations from a re-analysis of the deposited data

Results flagged for a closer look

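Cells far from the rest of their group were looked for in the cytokines and the 10 largest rises and falls, on log2(CPM + 1), by the gap to the nearest cell as a share of the group's range (Dixon's 95% limit). Of 30 groups 6 were flagged. The limit assumes normally spread values, and these groups hold zeros, so no rate of flags by chance can be set beside this count. Csf2 was flagged in resting cells (share 1.00, a single cell with reads) and in onset cells (0.602, a single low cell at 15.1 CPM). Calca was flagged in resting cells (0.727, a single high cell), Ilk in resting cells (0.711, a single cell at 0), Castor1 in resting cells (0.922, a single cell at 0) and Ccdc184 in onset cells (0.677, a single cell at 0).

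Tspyl1, with 267 resting and 0 onset reads here, had 48 onset and 0 resting reads in the IL-13 index, a log2 ratio of 2.53 that is set by the floor of 3 reads, at a level under the 50 CPM minimum. The opposite directions of the 2 indexes were not tested.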

How the results depend on the processing

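No paired analysis was possible because the replicate numbers follow accession order and pair no cells. The log2 ratio of Il5 was 10.86, 8.77 with resting cells of both indexes (23 Il5 reads in the IL-13 index), 9.56 with every cell thinned to 100000 reads, where the 3-read floor is higher, and 10.44 to 11.00 on leaving out any 1 cell. Genes at least 4-fold higher and lower numbered 431 and 484. They were 1766 and 1271 with a mean of at least 10 CPM, 64 and 58 with 200 CPM, and 2422 and 1582 with no minimum, and 417 to 500 and 479 to 613 on leaving out 1 cell. The median log2 ratio of all genes, -0.19, became 0.21 with TMM, 0.19 with DESeq2 size factors, -0.040 with resting cells of both indexes, -0.12 with the second date alone (added after seeing the data), 0.063, -0.12 and 0.37 with those 3 minimums, and -0.30 to -0.16 without 1 cell. The listed genes at least 4-fold higher numbered 85, 131 with the 10 CPM minimum, and 79 to 99 without 1 cell. The share also higher on IL-13 was 36.1%, 52.0% with a 2-fold limit there (27.2% of all genes) and 49.1% at 200 CPM (7.23%). Each of these shares includes genes without resting reads in either index, whose direction was set in advance. Onset cells exceeded resting cells by 213 genes detected, 181 to 245 without 1 cell. Genes without overlap numbered 22 to 30 above and 9 to 23 below on leaving out 1 cell. Depth set the floor at 2.47 CPM at rest and 0.845 CPM at onset.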
